A study of Homo sapiens with 12 samples.

Results

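BST2, IFITM1, MX2, GBP5 and RSAD2 are 5 interferon-induced genes of endothelial cells (ECs), chosen from the 107 genes that the authors' calls placed in either of 2 deposited annotation tables. They were selected on those calls and on their known response to interferon, so their presence in the tables is a description and not a finding. RNA was sequenced from EA.HY926, an established line that arose from the fusion of umbilical vein ECs and lung carcinoma cells, although the study's legends speak of HUVECs. The 12 samples form 4 groups with 3 replicates apiece. NC cells were wild type and unstimulated, and NC-L-L cells were wild type and were given LPS, a bacterial cell wall component, for 16 h at 1 µg/mL and lactate for 3 h at 10 mM. In siENO1 cells the glycolytic enzyme gene ENO1 was silenced with siRNA, and siENO1-L-L cells had the same silencing and the same LPS and lactate. The labels do not say whether NC and NC-L-L cells received a control siRNA. A gene counts as called here when the authors listed it, for which they asked for a false discovery rate under 0.5, a p value under 0.05 and a fold change that was either 1.5 or more, or 0.5 or less.

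Interferons are secreted proteins that cells release on sensing microbes. Type I interferons (alpha and beta) and type II interferon (gamma) signal through JAK kinases to STAT and IRF transcription factors, which bind the interferon-stimulated response element (ISRE) and the gamma-activated site (GAS) in promoters. The induced proteins block steps of the viral life cycle one by one, and ECs, which line vessels and meet blood-borne microbes, are among the cells that respond.

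In the Gene Ontology (GO) table for NC-L-L against NC, 4 of the 5 members were listed (BST2, IFITM1, MX2 and GBP5), where 95 of 18704 annotated genes were called (0.508%). In the KEGG pathway table, which sets siENO1-L-L beside NC-L-L, 1 of the 5 was listed (RSAD2), where 14 of 7958 annotated genes were called (0.176%). Both comparisons rest on the same NC-L-L samples, and they use different annotations, so a member missing from one table was either not called or not annotated there, which the tables do not tell apart. Neither table gives a level, a fold change or a direction, so "called" covers genes that rose and genes that fell, and no spread between replicates could be given. The label as ECs could not be checked by level either: of 7 endothelial, 5 epithelial and 5 leukocyte marker genes, 0 were called in either comparison.

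The GO table named BST2 in 29 terms, GBP5 in 20, MX2 in 19 and IFITM1 in 18, against a median of 19 terms over the 95 called genes (lowest 1, highest 96). Together the 4 genes stood in 61 of the 1218 listed terms, of which 34 were biological processes, 19 cellular components and 8 molecular functions. A single member was named in 44 of these terms, 2 members in 11, 3 members in 4 and all 4 members in 2. Both terms with all 4 members were broad ones. Protein binding held 82 called genes of 12516 annotated, and membrane held 20 of 3273.

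Of the 17 terms with 2 or more members, 8 were biological processes. They comprised 3 responses to interferons, 3 terms on viruses, innate immune response and negative regulation of cell migration. Response to interferon-beta held 2 called genes of 10 annotated (20%), BST2 and IFITM1. The same pair made up response to type II interferon, with 2 of 25 (8%), and negative regulation of viral genome replication, with 2 of 43 (4.65%). Response to virus held 3 of 109 (2.75%), which were BST2, IFITM1 and MX2. In these 4 terms, and in response to interferon-alpha with 3 of 10, every called gene was a member. The members were chosen as called genes with a known response to interferon, so this can follow from that choice. The other 3 shared processes also listed genes of other kinds.

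Defense response to virus held 5 of 223 annotated genes (2.24%), namely BST2, IFITM1 and MX2 with the cytokine IL6 and the RNase ZC3H12A. These 2 genes were not listed under response to virus, although that term is the parent of defense response to virus in the ontology. The table thus counts genes by their own annotation and does not carry them up to broader terms, and small terms such as the interferon responses hold fewer annotated genes than they would with that step. Innate immune response held 7 of 470 (1.49%), among them BST2 and MX2. Negative regulation of cell migration held 3 of 135 (2.22%), which were BST2, IFITM1 and the focal adhesion scaffold NEDD9.

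The share of annotated genes that were called exceeded 0.508% in 55 of the 61 terms with a member and in 1173 of all 1218 listed terms. A listed term holds at least 1 called gene, so each term of up to 196 annotated genes lies above that percent by construction. The median share was 1.81% over the terms with a member and 3.88% over all listed terms. The members' terms ranged from 0.218% for RNA binding, which lists BST2, to 30% for response to interferon-alpha.

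**Figure D1:**
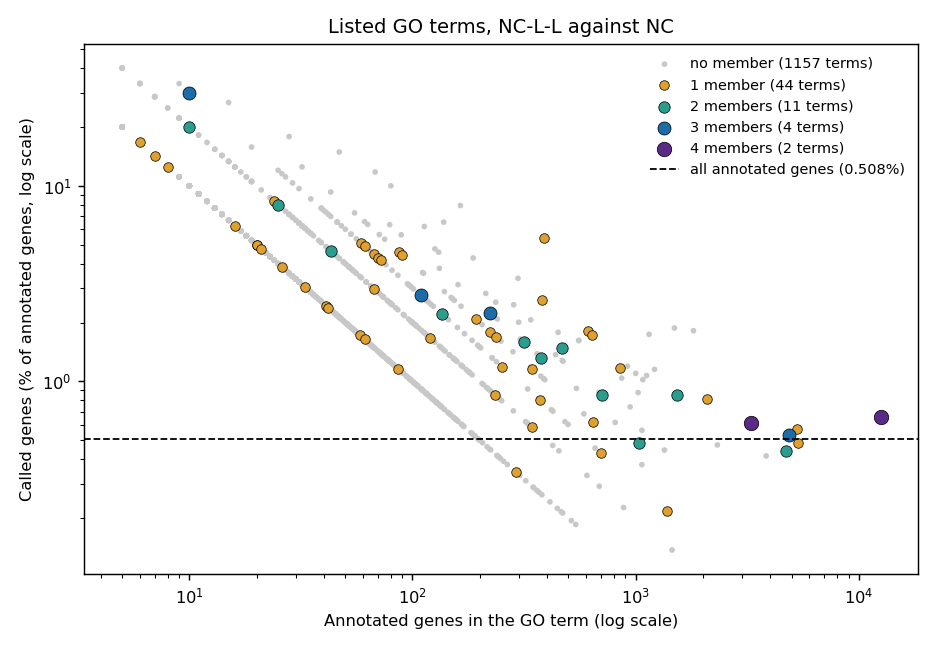
Each point is a listed GO term, placed by its number of annotated genes and by the percent of them that were called (both log scales), and coloured by how many members it lists. The dashed line is the 0.508% of all annotated genes; the term with 3 members at the upper left is response to interferon-alpha, and the terms with 4 members lie among the broadest, near the line.

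IFITM1 acts at the entry of viruses, where this small membrane protein keeps the viral and cellular membranes from fusing. In GENCODE v29 (GRCh38) the gene spans chr11:313506-315272, plus strand. It alone among the called genes stood in negative regulation of viral entry into host cell, with 1 of 21 annotated genes (4.76%), and in type I interferon-mediated signaling pathway, with 1 of 41 (2.44%). Further terms of IFITM1 were shared with cytokine genes, such as negative regulation of cell population proliferation with 10 of 382 (2.62%). A stretch of its promoter is shown because interferon-activated factors bind such motifs. Its 30 bases span the RefSeq gene start (GRCh38.p14, chr11:314014-314043, plus strand), and capitals mark the ISRE core, GAAANNGAAA, on either strand.
IFITM1: agagaaatacacacttctgaGAAACTGAAA

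The IFITM1 window held the ISRE core at 2 places on the strand of the gene. One began 40 bases before the gene start, and the other, which is the one shown, lay across the start and began 6 bases before it. A GAS motif, TTCNNNGAA, began 12 bases before the start and overlapped the second of them. GENCODE v29 has IFITM1 transcripts that start further upstream, and all 30 bases shown lie in their exons.

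BST2 (tetherin) acts at the release of viruses, where it holds budding particles on the cell surface. In GENCODE v29 the gene spans chr19:17402939-17405648, minus strand. Of its 29 terms, 15 were shared with another member, and 5 listed no other called gene. Terms that it held without another member ranged from membrane compartments to RNA binding and B cell activation. Multivesicular body held 1 of 42 annotated genes (2.38%), membrane raft 2 of 235 (0.851%) with BIRC3, and positive regulation of I-kappaB kinase/NF-kappaB signaling 4 of 192 (2.08%) with BIRC3, IL1A and IL1B. A stretch of 30 bases before its RefSeq start (GRCh38.p14, chr19:17405738-17405767, minus strand) is shown with the ISRE core in capitals.
BST2: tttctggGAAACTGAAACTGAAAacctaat

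The BST2 window held 2 overlapping copies of the ISRE core, which began 130 and 124 bases before the gene start, both on the strand of the gene. A GAS motif beginning 136 bases before the start overlapped the first copy, and another began 58 bases before it. All 30 bases shown also lie in GENCODE v29 exons of BISPR and MVB12A, which are transcribed the opposite way.

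BST2 and IFITM1 were the most alike pair of members by their terms. They shared 10 terms, out of 29 and 18, and 7 of the 10 were biological processes. The Jaccard index, the number of shared terms divided by the number of terms of either gene, was 0.270. Each gene had the other as its nearest among all called genes of the table. The next called genes for BST2 were MX2 (0.171) and GBP5 (0.140), followed by the antigen-presenting HLA-B (0.135). For IFITM1 they were MX2 (0.156) and the potassium channel gene KCNJ12 (0.120), and the terms shared with KCNJ12 were membrane, plasma membrane and protein binding.

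MX2 is a dynamin-like GTPase that sits at nuclear pores and blocks the nuclear entry of retroviruses. In GENCODE v29 it lies at chr21:41361943-41409390, plus strand. The terms that it held without another member included nuclear transport, microtubule, cytosol and cell cycle terms. Nuclear pore held 1 called gene of 86 annotated (1.16%), regulation of nucleocytoplasmic transport 1 of 8 (12.5%) and mRNA transport 1 of 61 (1.64%), and MX2 was the called gene in each. Defense response held 3 of 70 (4.29%), with HLA-B and the cytokine IL32. MX2 shared 4 processes with BST2 (Jaccard index 0.171 over all terms) and 3 with IFITM1 (0.156).

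IL32 had an index of 0.167 to MX2, and the terms they shared were cytosol, defense response, membrane and protein binding. MX2 joined both the antiviral terms of BST2 and IFITM1 and the GTPase terms of GBP5. RefSeq promoter windows were found for 3 members, and there was no entry for MX2 and GBP5.

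GBP5 is a large GTPase of the guanylate-binding protein family, which interferon gamma induces strongly and which acts on intracellular bacteria, viral envelope proteins and the NLRP3 inflammasome. Its GENCODE v29 position is chr1:89258950-89272804, minus strand. It shared 8 of its 20 terms with another member, and 0 of these were biological processes. Genes were not carried up to broader terms, so a process and its parent count as different terms here. GTPase activity held 5 of 316 annotated genes (1.58%) and GTP binding 5 of 378 (1.32%), and both terms listed MX2 and GBP5. Among the members, GBP5 was nearest to MX2 (Jaccard index 0.147), followed by BST2 (0.140) and IFITM1 (0.0556).

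The interferon term of GBP5 was a separate one by direct annotation, without the step up to broader terms. Cellular response to type II interferon held 4 of 90 annotated genes (4.44%), GBP5 with the chemokines CCL2, CCL3 and CCL20, whereas BST2 and IFITM1 stood under response to type II interferon. Further processes of GBP5 concerned inflammation, bacteria, protein homotetramerization (3 of 59, 5.08%) and protein localization to the Golgi apparatus (1 of 20, 5%). Inflammatory response held 21 of 390 (5.38%), response to bacterium 4 of 87 (4.60%) with C3, CCL2 and LRG1, and positive regulation of interleukin-1 beta production 3 of 61 (4.92%) with CCL3 and IL6. GBP5 was the single called gene in positive regulation of interleukin-18 production (1 of 7, 14.3%) and in positive regulation of NLRP3 inflammasome complex assembly (1 of 20, 5%).

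RSAD2 (viperin) is a radical SAM enzyme that turns CTP into a chain terminator of viral RNA synthesis. It was the member listed in the KEGG table, which compares siENO1-L-L cells with NC-L-L cells, where both groups had LPS and lactate and differed in the silencing of ENO1. Its GENCODE v29 position is chr2:6865806-6898239, plus strand. Both of its pathways were viral diseases, and in both it was the single called gene. Hepatitis C held 1 called gene of 157 annotated (0.637%) and Influenza A 1 of 169 (0.592%). The table listed 3 viral disease pathways among 31 pathways in all, and 30 of the 31 held 1 called gene. The median over the 14 called genes was also 2 pathways per gene.

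The RefSeq windows cover 2 starts of RSAD2, and the ISRE core was found in the window of the downstream one. A stretch of 30 bases before that start (GRCh38.p14, chr2:6877622-6877651, plus strand) is shown with the match in capitals. It lies on the opposite strand, so that the letters read as the reverse complement of the core, and begins 145 bases before the start. The stretch lies within the GENCODE v29 span of RSAD2 and outside the annotated exons.
RSAD2: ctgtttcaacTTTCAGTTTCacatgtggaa

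All 3 members with a window thus held the ISRE core within 250 bases before a start. Over the RefSeq table, 3.57% of 35116 windows held it on either strand, and by gene 1195 of 27305 (4.38%). Among the other called genes of both tables, 7 of 79 with a window held it (8.86%). Of 66 interferon pathway genes that were not called, 32 held it (48.5%), among them MX1, IFITM3, IFIT1 and ISG15, so the motif is common in this gene class whether or not a gene was called. GAS stood in 2 of the 3 members, BST2 and IFITM1, in 21 of the 66 interferon pathway genes that were not called (31.8%), in 12.7% of the other called genes and in 9.38% of all genes. A match is a stretch of letters and was not examined for binding.

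For NF-kappaB, a factor that LPS activates, only the form GGGNNTTTCC of the motif was searched. A gene without a match may still carry another form. The form was found in 0 of the 3 members and in 7 of the 66 interferon pathway genes that were not called (10.6%). It was found in 11 of the 79 other called genes (13.9%) and in 635 of all genes (2.33%). Among the other called genes of the GO table alone it stood in 11 of 70 (15.7%). The 11 genes were BIRC3, CCL20, CXCL1, CXCL2, CXCL3, IL32, IL6, NFKB2, NFKBIZ, PRR5L and TNFAIP3, mostly chemokines and NF-kappaB regulators. On the strand of the gene alone, the ISRE core stood in 3 of the other called genes and in 571 of all genes, and the NF-kappaB motif in 7 and 326. With 3 members these shares are descriptions only.

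The wider interferon pathway was counted on a list of 89 genes. The 4 members were the called genes of this list in the GO table and RSAD2 in the KEGG table, and of the other 84 genes 0 were listed in either. These counts stand beside 0.508% of all annotated genes in the GO table and 0.176% in the KEGG table. Few or none of 84 genes are called at these shares, and nothing is read from the counts. The members and the list were chosen with these calls known, so counts of 0, here and by role, can follow from that choice. Nor is the list complete, as the called gene IFI30, which interferon gamma induces, is not on it. By role, 0 of 9 interferons, 0 of 6 receptors, 0 of 12 kinases and transcription factors and 0 of 9 nucleic acid sensors and adaptors were called. Antiviral effectors gave 3 of 35 in the GO table and 1 of 35 in the KEGG table, guanylate-binding proteins 1 of 7 and 0 of 7, and all of these are the members themselves, which were selected for being called. Of 8 interferon-gamma targets in chemotaxis and antigen processing and 3 feedback inhibitors, 0 were called. Without levels, genes that were not expressed, not changed or short of the authors' limits cannot be told apart.

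The genes beside the members were counted as well. Of 18 neighbouring genes placed by RefSeq, 0 were called in either table, a count that says little where 0.508% and 0.176% of all annotated genes were called. They include relatives of the members. IFITM3 lies 4404 bases from IFITM1 and IFITM2 4645, MX1 lies 11165 bases from MX2, and GBP4, the nearest of 6 relatives of GBP5, lies 57247 bases away. CMPK2, which overlaps RSAD2 over 751 bases in RefSeq, and BISPR, a long non-coding RNA gene 56 bases from BST2, were not listed either. Whether the authors' counting used strand is not given, so reads in the stretch of RSAD2 and CMPK2 cannot be assigned here. Non-coding genes seldom carry GO or KEGG annotation, and the tables do not show the calls of genes without one.

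Reads of related genes can be hard to assign, so each member's longest protein-coding transcript was searched for exact matches in the transcripts of genes elsewhere. Of all windows of 150 bases, 0% occurred elsewhere for each of the 5 members, over 4550 windows for GBP5 and 3370 for RSAD2. Shorter windows of 75 bases gave 8.58% for IFITM1, all shared with IFITM3, and 0% for the other 4. The longest run that IFITM1 shared with IFITM3 was 141 bases of its 855. MX2 and MX1 shared at most 68 bases, and GBP5 shared at most 38 with its relatives, in GBP2. IFITM1 is therefore the member whose reads lie closest to those of a relative.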

How the data were processed

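Total RNA from 12 EA.HY926 samples was sequenced by the authors, who called genes and made the tables; the aligner, genome build and counting method are not given in the sources used here. The authors deposited, for each term, the numbers of called and annotated genes, both totals and the called symbols. They also deposited a p-value, a q-value and an enrichment score, which are their own comparisons and were not used. The tables hold 0 columns of sample values, so depth is unknown and no test was run.

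Members were found by exact symbol. Term sets were compared by the Jaccard index, and promoter motifs were searched on both strands of 300-base RefSeq windows (GRCh38.p14), 250 before and 50 after each start, a gene holding a motif if any of its windows did. Transcripts came from GENCODE v29 (GRCh38). The members and lists were chosen with earlier results of these data known. Genes named are the members, called genes of the interferon list, the 3 nearest called genes of each member, and called genes of shared terms with at most 100 annotated genes. All others were named after their values were seen. Results of 1 listed gene are not reported here. The code was tested on simulated data. Python 3.11.15, scipy 1.17.1, numpy 2.4.6 and matplotlib 3.10.9 were used.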

Additional observations from a re-analysis of the deposited data

How the results depend on the processing

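No paired analysis was possible because values of single samples are lacking in both tables, and for the same reason no replicate could be left out. Likeness of proteins was not run, for lack of protein sequences in the reference used here. The 61 terms that list a member became 38 when terms with under 3 called genes were left out, and 34 with biological processes alone. The 17 terms with 2 or more members became 10 with terms of at most 500 annotated genes, 8 with biological processes alone and 8 without BST2, the member that stands in most of them. Each of these falls by construction, since fewer terms or members are counted. The Jaccard index of BST2 and IFITM1, 0.270, was 0.28 with terms of at most 500 annotated genes, and the overlap coefficient, which divides by the smaller set, was 0.556. The 4 called genes of the interferon list stayed 4 with synonyms. The ISRE core stood in 3 members with bases before the start alone and in 2 with the gene strand alone, which leaves out RSAD2. On the gene strand alone, the ISRE core fell from 7 to 3 of the other called genes and from 1195 to 571 of all genes, and the NF-kappaB motif from 11 to 7 and from 635 to 326, since one strand is searched in place of both. The highest share of transcript windows found elsewhere, 0% at 150 bases, was 8.58% at 75 bases, in IFITM1. Of all 45 alternatives computed, 28 were equal to the main value or close to it (counts within 1.5 times) and 17 were further away.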

Other observations

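Beyond the 5 members, the GO table listed 8 terms with interferon in their names, of which 5 held a member. The other 3 concern the making of interferon and not the response to it. Negative regulation of interferon-beta production held RELB (1 of 13 annotated genes), negative regulation of type II interferon production held ZC3H12A (1 of 41), and positive regulation of type II interferon production held IL1B (1 of 77). Of 12 terms that name viruses, 4 held a member.

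Antigen presentation, which interferon gamma raises in ECs, was listed through genes outside the interferon list. HLA-B and HLA-F, class I antigen-presenting molecules, made up peptide antigen binding (2 of 27, 7.41%). IFI30, a lysosomal thiol reductase induced by interferon gamma, and the protease CTSS made up antigen processing and presentation of exogenous peptide antigen via MHC class II (2 of 29, 6.90%). The HLA-F promoter window held the ISRE core, as did those of CCDC178, ENKUR, NEDD9 and PMCH among the other called genes of the GO table (5 of 70 with a window, 7.14%). These genes and terms were singled out after their values were seen, and whether interferon acted on any of them was not tested. Further antigen terms were listed too, such as antigen processing and presentation with CTSS and RELB (2 of 25, 8%). Listed terms this small lie above 0.508% by construction.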
